A study of Mus musculus with 6 samples.

Results

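The ISG15 conjugation and deconjugation system was examined in bulk RNA-seq data from the vestibular epithelium of the mouse inner ear. Its 5 genes, Isg15, Uba7, Ube2l6, Herc6 and Usp18, were taken by symbol from the 52636 genes of the deposited table. The rule uses no measured value, but the genes were chosen with earlier results of these data known. Male 129S1/SvImJ mice, aged 2 to 4 months at the start, drank water with 30 mM of 3,3'-iminodipropionitrile (IDPN, a compound known to damage vestibular hair cells, HCs) for 8 weeks (n = 3), or plain water (Control, n = 3), and were killed on the last day of exposure. Both groups are wild-type animals of 1 inbred strain, and each library holds the 2 utricles and 6 cristae of 1 animal, so sensory and surrounding cells are mixed. Reverse transcription of 6 to 11 ng of RNA from an oligo-dT primer followed SMART-seq2, with 8 and then 12 cycles of PCR and no molecular identifiers, so any interval from counts covers counting error only. All 6 libraries carry 1 batch label. The animal codes in the titles begin alike for all Control animals and differently for the IDPN animals, where IDPN 1 has another beginning than IDPN 2 and IDPN 3, so whatever the beginning stands for and the treatment cannot be told apart.

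ISG15 is a ubiquitin-like protein that is made when cells respond to interferon and is attached to lysines of other proteins. Attachment runs through a chain of enzymes: UBA7 is the activating enzyme (E1), UBE2L6 the conjugating enzyme (E2), and HERC6 the main ligase (E3) for ISG15 in the mouse. USP18 removes ISG15 from its targets and, apart from this protease activity, restrains signalling at the type I interferon receptor through the subunit IFNAR2. All of these genes are known to be induced by interferon in many cell types.

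The RefSeq sequences before the start of 4 of the genes are shown because interferon acts on such genes through short motifs near the start. The windows hold the 250 bases before the RefSeq start on GRCm38.p6, 5′ to 3′ on the strand of the gene. They cover chr4:156200819-156201068 on the minus strand for Isg15, and on the plus strand chr9:107975317-107975566 for Uba7, chr2:84798578-84798827 for Ube2l6 and chr6:57580742-57580991 for Herc6. For Uba7 only the 188 bases up to chr9:107975504 are printed, since the rest lies inside the gene as GENCODE annotates it. Usp18 had no entry. Capitals mark matches on either strand to GAAANNGAAA, a core of the interferon-stimulated response element (ISRE) that STAT2 and IRF9 bind within a complex, and to TTCNNNGAA, the gamma-activated site (GAS) of interferon signalling.
Isg15: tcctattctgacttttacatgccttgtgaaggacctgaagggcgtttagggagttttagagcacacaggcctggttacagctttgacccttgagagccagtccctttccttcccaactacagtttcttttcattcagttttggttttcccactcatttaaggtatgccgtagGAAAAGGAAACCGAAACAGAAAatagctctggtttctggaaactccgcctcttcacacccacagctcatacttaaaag
Uba7: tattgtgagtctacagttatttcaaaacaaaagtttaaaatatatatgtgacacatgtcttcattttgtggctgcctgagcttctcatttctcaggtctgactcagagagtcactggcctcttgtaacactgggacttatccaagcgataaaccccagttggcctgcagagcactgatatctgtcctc
Ube2l6: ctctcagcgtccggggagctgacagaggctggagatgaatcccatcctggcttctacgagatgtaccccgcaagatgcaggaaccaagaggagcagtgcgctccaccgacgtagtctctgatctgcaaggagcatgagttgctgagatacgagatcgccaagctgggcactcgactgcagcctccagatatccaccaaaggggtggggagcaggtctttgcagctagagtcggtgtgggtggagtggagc
Herc6: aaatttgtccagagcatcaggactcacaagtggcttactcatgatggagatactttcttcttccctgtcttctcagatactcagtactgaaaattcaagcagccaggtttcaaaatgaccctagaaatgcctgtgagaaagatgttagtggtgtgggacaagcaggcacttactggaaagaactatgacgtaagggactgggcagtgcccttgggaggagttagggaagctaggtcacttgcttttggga

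Isg15 held 3 ISRE matches that overlap one another in a run of 22 bases, from 78 to 57 bases before the start (chr4:156200875-156200896), and the 250-base windows of Uba7, Ube2l6 and Herc6 held no match to either motif. No GAS match was found in any of the 4 windows. Of all 32851 RefSeq windows of this length, 2.98% held an ISRE match and 7.02% a GAS match. Among the 31 other interferon-stimulated genes with a window, 12 held an ISRE match, including Ifit1, Ifit3, Rsad2 and Gbp3. A match describes letters in a window and says nothing of binding in this tissue.

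Counts were normalized by DESeq2 size factors, and calls required a Padj (the Benjamini-Hochberg adjusted p of the DESeq2 Wald test over the whole table) under 0.05 together with a fold change above 1.5. All 5 genes passed the filter on low values and had a Padj. Total counts lay between 40474847 and 43566332 per library, and the size factors were between 0.825 (Control 1) and 1.21 (IDPN 1). Defining genes of HCs and supporting cells were present, with none of the 13 HC and 9 supporting cell markers under 10 normalized counts in all libraries. In bulk tissue, a change in the number of cells that hold a transcript and a change in its amount per cell cannot be told apart. With total counts in place of size factors, the median log2-Fold_Change of all 17650 genes tested moved by 0.25, from 0.015 to 0.27, so all directions are relative to the typical gene.

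After IDPN the modifier, the E2 and the protease rose, and neither the E1 nor the E3 passed the test. Isg15, Ube2l6 and Usp18 were called upregulated, 3 of the 5 genes, where 2.32% of all genes tested were called in this direction. The edgeR quasi-likelihood test called the same 3 genes, beside 1.02% of its 16310 genes. Every IDPN library lay above every Control library for 4 of the 5 genes, all but Herc6, and this held for 11.1% of all genes tested.

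**Figure D1:**
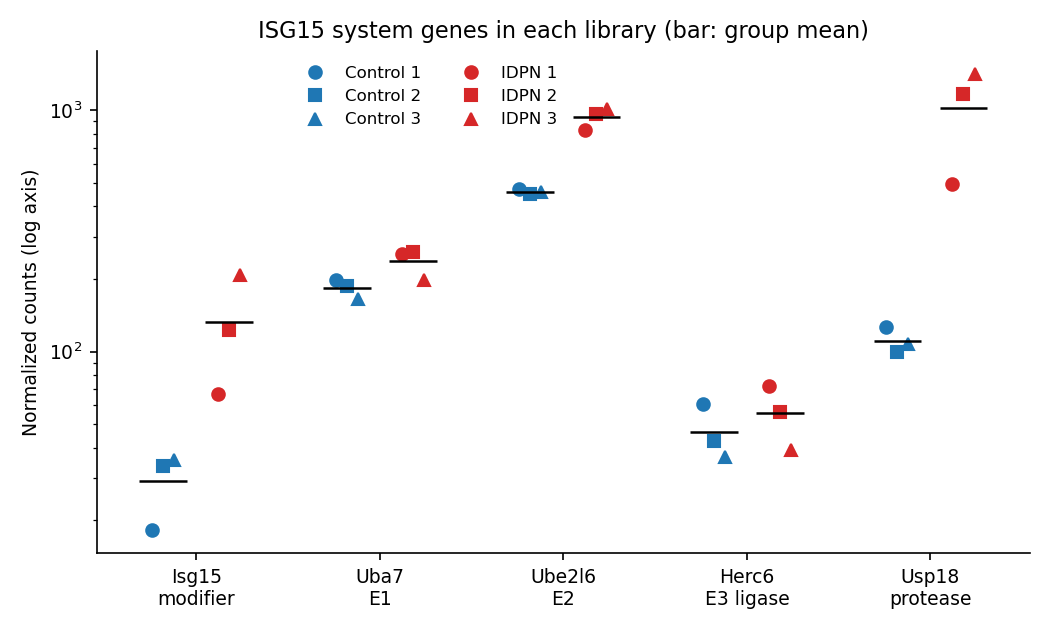
Normalized counts (log axis) of the 5 ISG15 system genes in each of the 3 Control and 3 IDPN libraries, ordered by role, with 1 point per library and a bar at each group mean. Usp18 lies at 99.3 to 126 in Control and 497 to 1419 in IDPN, and Herc6 overlaps between the groups.

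Isg15 (ENSMUSG00000035692.6, GRCm38 chr4:156199424-156200818, minus strand), the modifier itself, stood at 18.2, 33.5 and 35.6 normalized counts in the Control libraries and at 67.0, 123 and 207 in those of IDPN 1, 2 and 3. The lowest IDPN library was above the highest Control library, and the IDPN libraries differed among themselves by 3.09-fold. The mean rose from 29.1 ± 9.49 to 133 ± 70.5 (SD, n = 3 each). This was 4.53-fold (95% interval 2.44 to 8.4), or 2.18 as log2-Fold_Change (SE 0.45, DESeq2 Padj = 0.000111). It rests on few reads. The highest Control library had 40 raw counts (95% Poisson interval 28.6 to 54.5) and the lowest IDPN library 81 (64.3 to 101), and these intervals do not meet. The edgeR adjusted p was 0.0338, and with limma-voom the call was lost (log2-Fold_Change 2.03, adjusted p = 0.0894). Leaving out 1 library at a time kept the log2-Fold_Change between 1.70, without IDPN 3, and 2.50, with Padj no higher than 0.0326. Against a fold change of 1.5 the Padj was 0.0578.

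Uba7 (ENSMUSG00000032596.14, chr9:107975505-107984060, plus strand), the E1, had 198, 187 and 165 normalized counts in Control and 253, 259 and 199 in IDPN. The groups did not overlap, but IDPN 3 lay next to Control 1. The Control mean was 183 ± 16.9 and the IDPN mean 237 ± 33.2 (SD, n = 3 for both). The log2-Fold_Change of 0.37 (SE 0.24, DESeq2 Padj = 0.456) did not pass, and its 95% interval, -0.09 to 0.84, corresponds to folds from 0.937 to 1.79. An increase like that of Isg15 lies outside this interval. Under total-count scaling the value was 0.64 with a Padj of 0.172.

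Ube2l6 (ENSMUSG00000027078.14, chr2:84798828-84810335, plus strand), the E2 that passes ISG15 to the ligase, was the most even of the genes called. Control libraries held 471, 452 and 457 normalized counts, and IDPN libraries 831, 963 and 1010. The coefficient of variation was 2.04% in Control and 9.92% in IDPN, against 32.6% and 53.2% for Isg15. Ube2l6 rose from 460 ± 9.38 to 935 ± 92.7 (SD, n = 3 each). The fold was 2.03 (95% interval 1.6 to 2.57) and the log2-Fold_Change 1.02 (SE 0.17, DESeq2 Padj = 6.1e-07). The edgeR adjusted p was 0.00388, and the value without any 1 library stayed between 0.96 and 1.11. In a test against a fold change of 1.5 the Padj was 0.722, so the call was lost.

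Herc6 (ENSMUSG00000029798.11, chr6:57581000-57664632, plus strand), the ligase, was the least abundant per kb of annotated exons. It had 60.6, 42.7 and 36.5 normalized counts in Control and 72.0, 56.2 and 39.2 in IDPN, so the groups overlapped and both means, 46.6 ± 12.5 and 55.8 ± 16.4 (SD, n = 3 each), lay within the spread of the other. The log2-Fold_Change was 0.27 (SE 0.43, DESeq2 Padj = 0.842), with a 95% interval of 0.672-fold to 2.16-fold. A doubling of Herc6 therefore lies inside the interval, and the 4.53-fold estimate for Isg15 lies outside it.

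Usp18 (ENSMUSG00000030107.10, chr6:121245906-121270917, plus strand), the protease, changed most. Its normalized counts were 126, 99.3 and 108 in Control, a tight group, and 497, 1163 and 1419 in IDPN, where IDPN 1 was well below the other two. Means went from 111 ± 13.7 to 1026 ± 475 (SD, n = 3 each). On the log2 scale the estimate was 3.21 (SE 0.31, DESeq2 Padj = 1.12e-21), which is 9.25-fold (95% interval 6.05 to 14.1). Of all genes tested, 99.7% had a lower log2-Fold_Change than Usp18 and 99.1% a lower one than Isg15. The call held in all 15 alternatives run, with an adjusted p no higher than 0.0107.

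**Figure D2:**
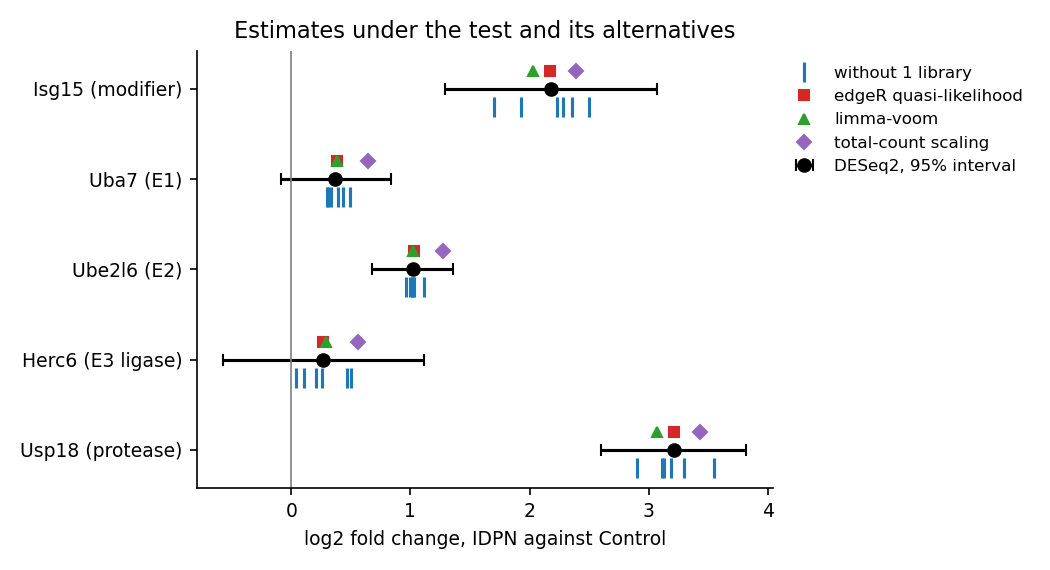
Log2-Fold_Change of IDPN against Control for the 5 genes (x axis), with the DESeq2 estimate and 95% interval in black, the values without 1 library as ticks, and edgeR, limma-voom and total-count scaling as symbols. The intervals of Uba7 and Herc6 include 0, and the lowest value of Usp18 is 2.90.

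Shared sequence bears on how reads could be divided among genes. The Isg15 transcript matched AC151275.1 over 482 bases at 95% identity or more, and that gene had 0 counts in all 6 libraries, so a split of reads between them is uncertain. Part of the exons of Usp18 (4.44%) overlapped Gm44148 on the other strand, part of those of Uba7 (3.48%) overlapped Gm20661 and part of those of Herc6 (13.7%) Gm45193 on the same strand. These overlapping genes had at most 13 counts in any library. Ube2l6 shared stretches of at least 76 bases with 5 other genes and Herc6 with 18, so values of Herc6, with few counts of its own, are the most uncertain in this respect. Some of these genes had many counts, such as Ift46 for Ube2l6 (1019 to 1430) and Slc3a2 for Herc6 (22581 to 32087). Others had few or 0, such as Gm17167 for Ube2l6 (0 to 22) and Gm25735 for Herc6 (0). The protocol does not mark strand.

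The make-up of the system is described here by levels per kb and by shares, with no test of the shares. Levels per kb divide by all exons annotated for a gene, merged, which is 756 bases for Isg15 (1 transcript) and 6692 for Uba7 (15 transcripts). Which transcripts were expressed was not examined. A gene expressed as a shorter transcript would stand higher, so the order among genes per kb is uncertain. Per kb of exon length, Ube2l6 was highest in Control, at 231 ± 4.7 normalized counts per kb, followed by Usp18 at 39.8 ± 4.93, Isg15 at 38.5 ± 12.6, Uba7 at 27.4 ± 2.52 and Herc6 at 5.02 ± 1.35 (SD, n = 3 each). The SD range of Isg15 met those of Usp18 and Uba7, and those of Usp18 and Uba7 did not meet. In IDPN the levels were 468 ± 46.5 for Ube2l6, 368 ± 170 for Usp18, 175 ± 93.3 for Isg15, 35.4 ± 4.97 for Uba7 and 6.01 ± 1.77 for Herc6, on the same scale. The order was the same, and here the SD ranges of Ube2l6 and Usp18 met, as did those of Usp18 and Isg15, while Isg15 and Uba7 were apart.

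As a share of the summed normalized counts of the 5 genes, not corrected for length, Usp18 made up 14.4%, 12.2% and 13.4% in Control and 28.9%, 45.3% and 49.4% in IDPN. The share of Ube2l6 was 55.5% on average in Control and 40.3% in IDPN, and that of Uba7 22.0% and 10.6%. Herc6 went from 5.58% to 2.58% and Isg15 from 3.54% to 5.31%. Shares are parts of a fixed whole, so a large rise of Usp18 lowers the shares of genes that rose less. Mean normalized counts of Ube2l6 (460 to 935), Uba7 (183 to 237) and Herc6 (46.6 to 55.8) were not lower in IDPN. Usp18 took a larger share than Ube2l6 in IDPN 2 and IDPN 3. Per kb it did not exceed Ube2l6 in the same way, with 417 against 482 normalized counts per kb in IDPN 2 and 508 against 506 in IDPN 3.

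**Figure D3:**
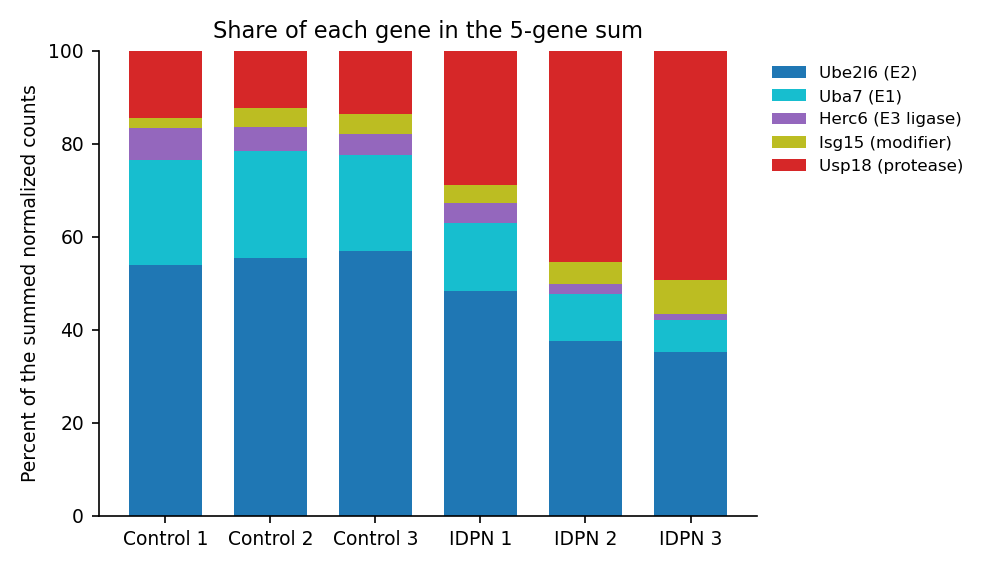
Percent of the summed normalized counts taken by each of the 5 genes (y axis, stacked to 100) in each library (x axis). The Usp18 segment covers 12.2% to 14.4% in the Control libraries and 28.9% to 49.4% in the IDPN libraries, and the Uba7 segment is smallest in IDPN 3 at 6.92%.

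Unequal change within a library was tested on the log2 ratio of each gene to Isg15. The mean Usp18 ratio was 1.95 ± 0.68 for Control and 2.96 ± 0.24 for IDPN (SD, n = 3 for both), a difference of 1.01. The ratios of the conjugating enzymes to Isg15 had differences of -1.05 for Ube2l6, -1.70 for Uba7 and -1.82 for Herc6. Two-sided exact permutation tests gave p = 0.10 for Usp18, Uba7 and Ube2l6, the smallest that 3 against 3 libraries allow, and 0.20 for Herc6. Adjusted over the 4 ratios the p-values were 0.13, 0.13, 0.13 and 0.20 (exact permutation). Since 0.10 is above the threshold used for calls, no ratio could have passed, and the test cannot decide whether the changes were unequal. The ratios of Usp18, Uba7 and Ube2l6 did not overlap between the groups, and those of Herc6 did. The gap was narrow for Ube2l6 (Control 3 at 3.65, IDPN 1 at 3.61) and Usp18 (Control 1 at 2.73, IDPN 3 at 2.77). With a pseudocount of 5 every adjusted p was 0.20 (exact permutation). All 4 ratios share the low counts of Isg15, and the share of all genes with such a separation was not computed.

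The IDPN animals also differed from one another. Isg15, Usp18 and Ube2l6 were lowest in IDPN 1, the animal whose code begins differently from those of IDPN 2 and IDPN 3, and highest in IDPN 3, with highest-to-lowest ratios of 3.09, 2.85 and 1.22. The part of that code in the spread was not tested. Uba7 and Herc6 were lowest in IDPN 3. The root-mean-square difference between centred log2 profiles over the 6 libraries was smallest for Uba7 and Herc6, at 0.22, and largest for Usp18 and Herc6, at 1.58. Isg15 and Usp18 differed by 0.65, and Isg15 and Ube2l6 by 0.72.

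By the same measure, among the 13120 genes whose normalized counts averaged 50 or more, the nearest to Isg15 were Slfn2 (0.35), H2-Q6, a non-classical MHC class I gene (0.37), and Tspan1, a tetraspanin (0.42). Nearest to Usp18 were Rtp4 (0.41) and Mx2 (0.53), which are interferon-stimulated, and Chia1, an acidic chitinase (0.42). Ube2l6 lay closest to Ptx3, a pentraxin (0.09), Dnajc25 (0.10) and Fgfr2, a growth factor receptor (0.11). Genes with modest changes have many near neighbours, and Uba7 (Lcmt2, Ccnl2 and Bzw2 within 0.07) and Herc6 (Rbpjl, Zkscan16 and Nipal1 at 0.15) had neighbours of which none was called. On the regularized log scale only Rtp4, Chia1 and Fgfr2, 3 of the 15 genes, were again among the nearest.

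Of 10 further ligases, proteases and receptor subunits reported for ISG15, 0 were called up by DESeq2 and 0 by edgeR or limma-voom, with 1 at an unadjusted p under 0.05, and DESeq2 called 1 down (3.42% of all genes tested were called down), with a median log2-Fold_Change of 0.28 beside 0.015 for all genes tested. Trim25, another ligase reported for ISG15, had 59.4, 119 and 111 normalized counts in Control and 172, 143 and 263 in IDPN, without overlap (log2-Fold_Change 0.99, SE 0.34, DESeq2 Padj = 0.0544). Trim25 was thus just short of the threshold, and 1 of the 10 genes was called up under total-count scaling, with the 10-count minimum, without Control 2 and without IDPN 2. The proteases Usp5, Usp14 and Usp21, which can also act on ISG15, had log2-Fold_Changes of -0.05, -0.09 and -0.00, and Usp2 and Usp16 had 0.63 and 0.28, none called. Itgal and Itgb2 encode LFA-1, the receptor for ISG15 outside cells. Itgal fell by 1.02 on the log2 scale (DESeq2 Padj = 0.0272, edgeR adjusted p = 0.0851), from 113, 140 and 126 to 57.1, 77.3 and 53.2, and Itgb2 was at 0.44 (DESeq2 Padj = 0.732).

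Of 20 proteins reported as ISG15 substrates, DESeq2 called 4 genes up and 0 down, where 2.32% of all genes tested were called up. At an unadjusted p under 0.05, 1 was lower, and edgeR and limma-voom called 2 up. The median log2-Fold_Change was 0.21. Among them were the double-stranded RNA kinase Eif2ak2 (1.00), and the RNA sensors Ifih1 (0.75) and Ddx58 (0.72), which are themselves interferon-stimulated genes. The other substrates were not called, among them Jak1 (-0.10), Becn1 (-0.13), Ube2n (0.02) and Pcna (0.10). Chmp5, of the ESCRT machinery, had a Padj of 0.00899 at a log2-Fold_Change of -0.58, which is short of the fold threshold.

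Upstream of the system, no receptor gene was called and transcription factor genes rose. Ifnar1 had 1596, 1529 and 1502 normalized counts in Control and 1934, 1421 and 1314 in IDPN (log2-Fold_Change 0.01), and Ifnar2, the docking site of USP18, had -0.10 (SE 0.19, DESeq2 Padj = 0.87). The kinases Jak1 (-0.10) and Tyk2 (-0.11) were not called. Of 17 genes of interferon reception and signalling, 5 rose and 0 fell by DESeq2 (2.32% of all genes tested rose), with 0 lower even at an unadjusted p under 0.05, and the median was 0.28. edgeR and limma-voom called 4. They included Irf7 (1.94), Irf9 (1.52, DESeq2 Padj = 2.53e-08), Stat2 (0.98) and Irf1 (0.90), which the edgeR test did not call (adjusted p = 0.0569). Irf9, a DNA-binding partner of STAT2, had 676, 728 and 819 in Control and 1393, 2870 and 2105 in IDPN, highest in IDPN 2. The inhibitors Socs1 (1.25, DESeq2 Padj = 0.187) and Socs3 (1.36, DESeq2 Padj = 0.3) did not pass.

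No transcript of the interferon genes listed was detected, and further interferon genes were not looked up. All 15 interferon genes listed, of types I, II and III and including Ifnb1 and Ifng, had 0 counts in all 6 libraries. A count of 0 allows up to 3 counts in a library, which is 0.0689 to 0.0741 as CPM (counts per 1000000 counts) at these depths. For comparison, Isg15 in Control 1 stood at 0.355 CPM.

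Of 40 other interferon-stimulated genes, 39 had a Padj, with a median log2-Fold_Change of 1.03. DESeq2 called 19 of them up and 0 down, where 2.32% of all genes tested were called up and 3.42% down. At an unadjusted p under 0.05 the counts were 31 and 0. edgeR called 11 up, where 1.02% of its 16310 genes were called up, and limma-voom 8. All 39 estimates were above 0. Oasl1, which like ISG15 carries ubiquitin-like domains, went from 2.43, 12.7 and 12.5 to 52.1, 82.3 and 203 normalized counts (log2-Fold_Change 3.59, DESeq2 Padj = 2.8e-07). It too was highest in IDPN 3. Gbp3, a guanylate-binding GTPase, had 806, 1970 and 1060 in IDPN and was highest in IDPN 2 (log2-Fold_Change 1.78, DESeq2 Padj = 2.53e-08). Ifit1, whose product binds viral RNA, ran from 1100 in IDPN 1 to 10043 in IDPN 3, and with that spread its log2-Fold_Change of 2.56 (SE 0.90) had a Padj of 0.0657. The smallest values belonged to Sp100 (0.04), Gbp2 (0.10) and Psmb9 (0.13), an immunoproteasome subunit, so Uba7 and Herc6 were not alone among interferon-stimulated genes in failing the test. Of the 12 genes with an ISRE match in the RefSeq window, 6 were called, and of the 19 with a window and no match, 8.

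**Figure D4:**
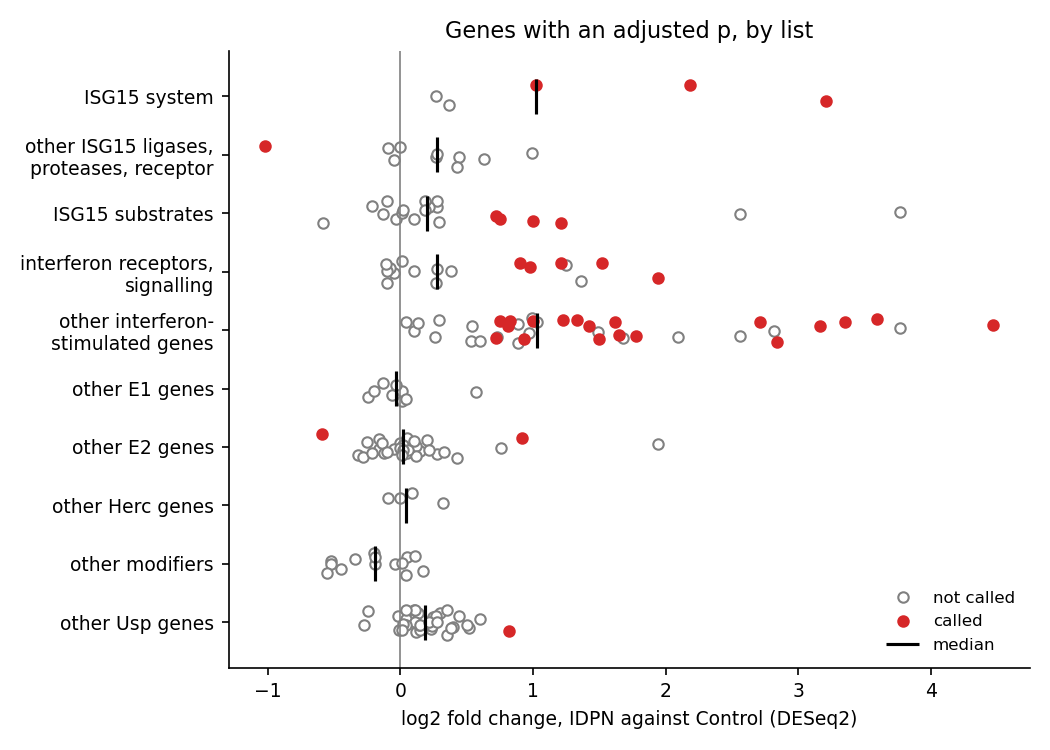
Log2-Fold_Change (x axis, DESeq2, IDPN against Control) of every gene with an adjusted p in each list (y axis), with filled points for called genes and a black line at the list median. The median is 1.03 for the other interferon-stimulated genes and between -0.19 and 0.19 for the related E1, E2, Herc, modifier and Usp genes.

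Enzymes and modifiers of the same families that serve ubiquitin and other modifiers gave the background for each role. Of 9 other E1 genes DESeq2, edgeR and limma-voom called 0, with 1 at an unadjusted p under 0.05 and a median of -0.03, and Uba1, the main E1 of ubiquitin, stood at 0.01. Of 31 other E2 genes DESeq2 called 1 up and 1 down, with a median of 0.02. These counts are near the shares over all genes tested, 2.32% up and 3.42% down. The genes called were Ube2o (0.92, DESeq2 Padj = 0.011) and Ube2e2 (-0.59, DESeq2 Padj = 0.00805). edgeR and limma-voom called 0 of the 31 in either direction, and the call of Ube2o was lost without Control 1, Control 2, IDPN 1 or IDPN 3. Ube2l3, a close relative of Ube2l6 that serves ubiquitin, had a log2-Fold_Change of -0.14 (DESeq2 Padj = 0.714) and levels of 688 ± 59.9 and 623 ± 19.4 normalized counts per kb in Control and IDPN (SD, n = 3 each). On that scale Ube2l6 stood at 231 in Control and 468 in IDPN, below Ube2l3 in both groups.

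None of the 4 other Herc genes was called by any of the 3 tools (1 at an unadjusted p under 0.05), with a median of 0.05 and Herc3 at -0.09. Of 14 other ubiquitin-like modifiers the 3 tools called 0, with 5 lower at an unadjusted p under 0.05 and a median of -0.19. Nedd8, at 2957 ± 438 normalized counts per kb in Control (SD, n = 3), was far more abundant than Isg15, which reached 274 in IDPN 3 on the same scale. Of 34 other Usp genes DESeq2 called 1 up, near the share over all genes tested (2.32%), and the list had a median of 0.19. The gene called was Usp1, which removes ubiquitin from PCNA and FANCD2 (0.82, DESeq2 Padj = 0.0033). Counts of these lists describe these libraries, and no difference between a list and the ISG15 system was tested.

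Markers of other cells moved as well. The summed normalized counts of 14 macrophage markers were 6527, 7852 and 6097 in Control and 8901, 13287 and 8735 in IDPN, without overlap and highest in IDPN 2. Of the 14 estimates 12 were above 0 and 2 below, with a median of 0.55. DESeq2 called 2 of the 14 up, Lyz2 (0.77) and Fcgr1 (1.72), where it called 2.32% of all genes tested up. The edgeR and limma-voom tests called 0, with edgeR adjusted p of 0.0708 and 0.0923 for Lyz2 and Fcgr1. The sum was mostly Lyz2, a lysozyme gene, at 5878, 9133 and 5825 in IDPN 1 to 3, and single markers did not share its order. Fcgr1, an Fc receptor gene, had 54.6, 27.1 and 54.1, and Cd68, a lysosomal marker (log2-Fold_Change 0.79, DESeq2 Padj = 0.145), had 125, 97.4 and 105 in the same libraries. C1qc (0.80) and Mrc1 (0.55) were also above Control in every IDPN library, and the receptor genes Csf1r (-0.01) and Cx3cr1 (-0.10) had the 2 estimates below 0.

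Of 10 lymphocyte markers, 8 stayed under 10 normalized counts in all libraries, among them Cd3e and Cd8a. Most of the lymphocyte sum was Cd79a, at 226, 224 and 124 in Control and 135, 111 and 164 in IDPN (log2-Fold_Change -0.48, DESeq2 Padj = 0.46). The sum over 4 plasmacytoid dendritic cell markers, cells that are known as strong interferon producers, was 57.7 to 112 in Control and 70.9 to 128 in IDPN, with overlap. It was mostly 1 gene, Siglech (50.8 to 104 in Control and 68.1 to 111 in IDPN). Klk1 and Cox6a2 stayed under 10 in all libraries, so the sum does not show that these cells were present. The erythroid sum was higher in IDPN on average (log2 ratio 0.83), but Control 2, at 36635, lay above IDPN 3 at 34689. Of the 5 erythroid markers DESeq2 called 4 up, where it called 2.32% of all genes tested up, and edgeR and limma-voom called 0. HC markers summed to 31051 to 35303 in Control and 22196 to 22518 in IDPN, with 7 of 13 called down by DESeq2 and 6 by edgeR, where DESeq2 called 3.42% of all genes tested down. Supporting cell markers summed to 353616 to 502120 and 251966 to 309474, with 1 of 9 called down by DESeq2 and 0 by edgeR. Neuron markers summed to 4903 to 5116 in Control and 3054 to 3371 in IDPN, without overlap, and 3 of 4 were called down by DESeq2 and 2 by edgeR. The Schwann cell sum had a log2 ratio of -0.61, with overlap and 0 of 4 markers called by DESeq2, edgeR or limma-voom (2 at an unadjusted p under 0.05). The part of these cell type differences in the changes of Isg15, Ube2l6 and Usp18 was not tested.

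**Figure D5:**
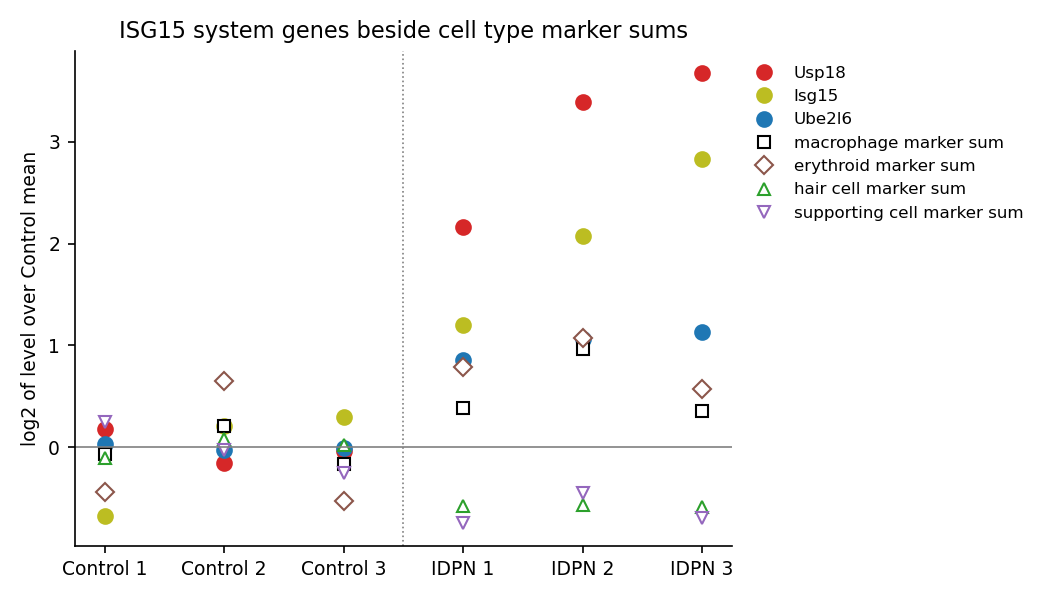
Log2 of the level over the Control mean (y axis) in each library (x axis) for Usp18, Isg15 and Ube2l6 (filled) and for summed normalized counts of macrophage, erythroid, hair cell and supporting cell markers (open). The macrophage sum lies at 6097 to 7852 normalized counts in Control and 8735 to 13287 in IDPN, and the HC sum at 31051 to 35303 and 22196 to 22518.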

How the data were processed

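RNA-seq libraries from the vestibular epithelium of 3 Control and 3 IDPN mice were analysed, each sample being 1 animal, grouped by the treatment label. The authors aligned reads to GRCm38 with STAR 2.5.3a and deposited estimated counts (expected counts) per gene from RSEM 2.3.0, as whole numbers, not normalized and not filtered. RSEM divides reads that match several genes. Depth ran from 40474847 to 43566332 counts, so genes such as Isg15, with 15 to 222 counts, are limited by counting error too.

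IDPN was compared with Control over the whole table by DESeq2 (version 1.42.0, Wald test, in R 4.3.3), the tool of the study's methods, requiring Padj under 0.05 and a fold change above 1.5. Alternatives were edgeR 4.0.16 quasi-likelihood and limma-voom (limma 3.58.1), each with TMM factors, TMM or total-count size factors, a minimum of 10 counts in 3 libraries, no independent filtering, no Cook's distance filter, protein-coding genes only, a test against a fold change of 1.5, and leaving out each library. The code was tested on simulated data. The ratios to Isg15 were compared by exact permutation tests, on log2(normalized count + 1) with pseudocounts of 0.5 and 5 as alternatives. Exon lengths and coordinates came from GENCODE M21 on GRCm38, later than the authors' annotation. Promoter windows came from RefSeq (GRCm38.p6) and matched 4 of the 5 genes.

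The 5 genes and all lists were chosen with earlier results of these data known. Named genes are the 5, list genes that were called, had one of the 3 largest or smallest changes of their list or mark a role, and for each of the 5 the 3 genes with the most similar profile. Further list genes are named after their values were seen, to fill a role. Some genes that meet the rule are not reported here.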

Additional observations from a re-analysis of the deposited data

How the results depend on the processing

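Usp18 kept its call in all 15 alternatives, and Uba7 and Herc6 stayed uncalled in all 15. Isg15 lost its call with limma-voom (log2-Fold_Change 2.03, adjusted p = 0.0894) and in the test against a fold change of 1.5 (2.18, Padj 0.0578), where Ube2l6 lost it too (1.02, Padj 0.722) and 1 of the 5 genes, Usp18, remained called. In the former the cause was not tested, and in the latter the test asks for more than the 1.5-fold threshold. Without 1 library, log2-Fold_Changes ranged from 1.70 to 2.50 for Isg15, 2.90 to 3.55 for Usp18, 0.30 to 0.49 for Uba7, 0.96 to 1.11 for Ube2l6 and 0.04 to 0.50 for Herc6, and 3 genes were called each time. No direction reversed in the alternatives run.

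Counts of upregulated genes moved more, and the cause was not tested. Over the whole table they were 166 with edgeR, 153 with limma-voom, 34 in the test against 1.5-fold, and 234 to 611 without 1 library (243 without Control 1, 246 without Control 2, 234 without IDPN 2, 265 without IDPN 3), against 410. Substrates went from 4 to 2 with edgeR and limma-voom and to 0 in the test against 1.5-fold, other interferon-stimulated genes from 19 to 11, 8 and 5, and other E2 genes from 1 to 0 in all 3. The test against 1.5-fold left 2 signalling genes and 0 Usp genes. Of the further ISG15 ligases, proteases and receptor subunits, 1 was called under total-count scaling and with the 10-count minimum. Without 1 library these lists gave 0 to 1 ligases, proteases and receptor subunits, 2 to 5 substrates (2 without IDPN 2 or IDPN 3), 0 to 1 other E1 genes, 0 to 1 other E2 genes and 0 to 2 other Usp genes. On the regularized log, 3 of 15 nearest genes were shared. No paired analysis was possible because the labels give no replicate numbers.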
